A study of Danio rerio with 6 samples.

Results

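The data described are the transcriptome of EGFP+ cells that were sorted from zebrafish embryos of the line Tg (*fli1a*:EGFP) after injection of a control morpholino (control MO). They are the 3 control MO samples of a series of 6, chosen by their labels alone. By the labels and the study's text the embryos were at 28 hpf (hours post fertilization), while some of its captions give an earlier hour for the same sequencing. They carried the *fli1a*:EGFP transgene. Each sample was measured by bulk RNA sequencing of total RNA, given for 32057 genes in FPKM, a level set relative to both the length of the gene's transcript and the number of fragments mapped in that sample, so that genes of different length can be compared. The other 3 samples, from embryos injected with a morpholino against *nlrc3*, were not analysed here.

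In this line the promoter of *fli1a*, an Ets family transcription factor of endothelium, drives EGFP. At this stage vessels of the trunk carry blood, and the floor of the dorsal aorta holds hemogenic endothelium, from which hematopoietic stem and progenitor cells (HSPCs) emerge. The same promoter is known to be active outside vessels, in neural crest-derived mesenchyme of the head and pharyngeal arches and in some early blood cells, so a gate on EGFP can hold these cells too. RNA of such a bulk sort adds up over its cells, and fewer cells of a type cannot be told apart from less of its RNA per cell. The study's captions for this sequencing speak of 3 biological replicates. Neither they nor the labels say whether the samples came from separate pools of embryos. How far the spread between samples is technical was not tested. All 3 form 1 group, so every value below is a description, given as mean ± SD over n = 3, and no test was run.

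The sort carried endothelial genes at high levels, beside red cell genes that outweighed every other cell type list in summed FPKM. The head mesenchyme list was near the pan-endothelial list in sum and median. Of the 32057 genes, 12748 (39.8%) were at 1 FPKM or more in all 3 samples, 5008 (15.6%) at 10 FPKM or more and 542 (1.69%) at 100 FPKM or more. The mean FPKM of the median gene was 0.363, and 8231 genes were listed at 0 in all 3 samples. The sums of FPKM were 524846, 525567 and 525228 in control MO samples 1, 2 and 3. Few genes made up most of this sum. The top 10 genes held 18.8% ± 0.0558 of it, the top 100 held 47.2% ± 0.0960 and the top 1000 held 74.5% ± 0.0606 (SD, n = 3 each), and 121, 120 and 120 genes reached 50% of the sum.

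The most abundant transcripts were those of embryonic globins, the oxygen carriers of the first red cells. *hbbe3* was first, at 20205, 20272 and 20305 FPKM, followed by *hbae3* at 16055, 16265 and 16251 FPKM and *hbbe1.1* at 14489, 14744 and 14557 FPKM. Of the top 10 genes, 7 were globins, with *hbae1.3*, *hbae1.1*, *hbbe1.3* and *hbae1.2* at means of 10915, 9940, 7208 and 5678 FPKM. The others were *mt-co1*, a mitochondrially encoded subunit of cytochrome oxidase, at 6252 ± 23.6 FPKM, *rplp0*, a stalk protein of the large ribosomal subunit, at 3912 ± 51.6 FPKM, and *si:dkey-151g10.6*, annotated as a constituent of the ribosome, at 3890 ± 14.4 FPKM (SD, n = 3 each). Ranks 11 to 25 held *hbbe1.2*, *mt-co2* and *mt-co3*, 9 ribosomal protein genes from *rpl6* at 3474 FPKM to *rpl18* at 2308 FPKM, the translation elongation factors *eef2b* at 3085 FPKM and *eef1a1l2* at 2911 FPKM, and the ferritin heavy chain *fth1a* at 2582 FPKM. Globins together took 17.0% ± 0.0443 of summed FPKM (16 genes), cytosolic ribosomal proteins 20.1% ± 0.0404 (93 genes) and mitochondrially encoded proteins 4.12% ± 0.0185 (13 genes), which left 58.7% ± 0.0922 for the 31935 other genes (SD, n = 3 each). The ribosomal class was read from the form of the gene symbol, which can miss or wrongly include a gene. *si:dkey-151g10.6* therefore counts among the other genes. The KEGG group Ribosome, of 128 genes, took 21.2% ± 0.0324 (SD, n = 3).

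**Figure D1:**
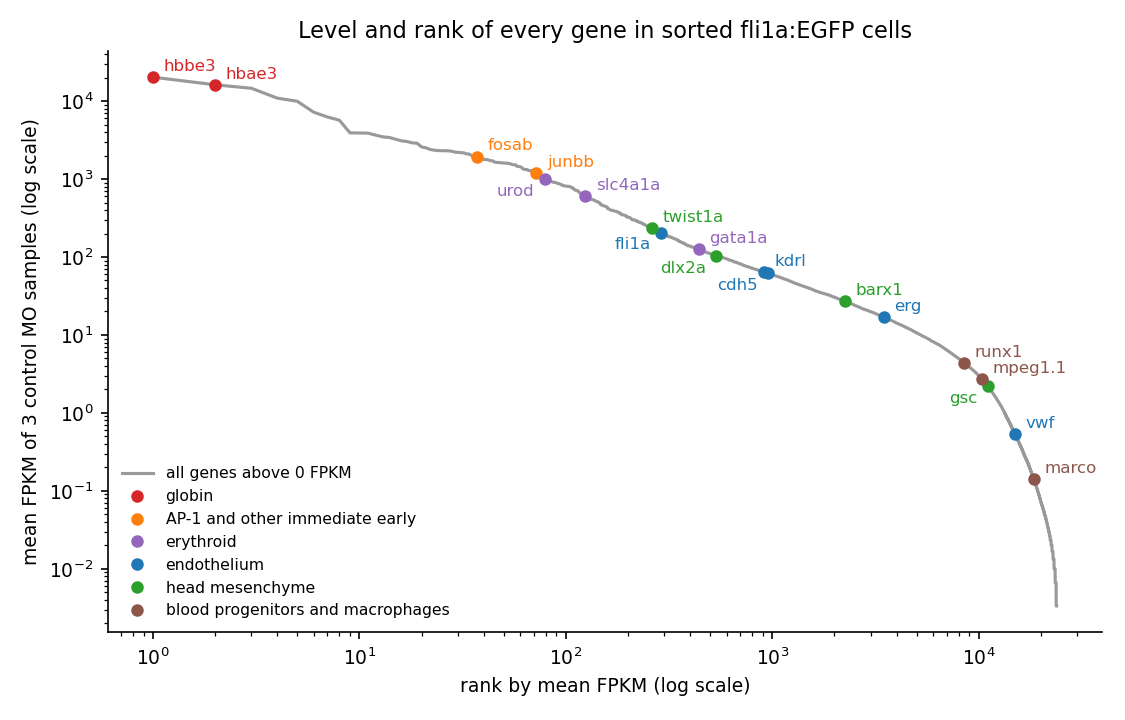
The grey line gives the mean FPKM of every gene above 0 against its rank, both on log scales, and the coloured points mark genes of 6 groups. *hbbe3* lies at rank 1 with 20261 FPKM, *fosab* at rank 37, *twist1a* and *fli1a* at ranks 262 and 290, and *runx1* and *marco* lie on the falling part of the curve at 4.37 and 0.140 FPKM.

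Levels of endothelial genes in the sort were read from 39 pan-endothelial genes. Of these, 37 were at 1 FPKM or more in every sample, 32 at 10 FPKM or more and 6 at 100 FPKM or more. Their median was 21.2 FPKM, against 0.363 FPKM over all genes. The series holds no unsorted or EGFP-negative sample, so these levels do not show enrichment by the sort. *fli1a*, the gene whose promoter drives the reporter, led the list at 206.8, 201.5 and 205.6 FPKM. It stood at rank 290, above 99.1% of all genes. Its paralog *fli1b* was at 37.5, 36.2 and 38.2 FPKM, so the values of the 2 genes did not overlap.

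The genes next to *fli1a* covered signaling, surface and transcription factor genes. *dusp5*, a phosphatase of the Erk pathway, had 147.6, 139.6 and 137.0 FPKM. The surface lectin *clec14a* was at 129 ± 1.94 FPKM, the secreted vessel factor *egfl7* at 127 ± 1.78 FPKM and the SoxF transcription factor *sox18* at 126 ± 2.55 FPKM (SD, n = 3 each). These 3 had overlapping ranges. Within each sample *clec14a* was above *egfl7*, while *sox18* was the highest of the 3 in sample 2 and the lowest in samples 1 and 3. *plvapb*, a component of the diaphragms of endothelial pores, had 102.3, 102.9 and 100.2 FPKM, below all of them.

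Receptors and junction genes that define endothelium came next. *kdrl*, a Vegf receptor, had 63.4, 65.6 and 63.7 FPKM, and *cdh5*, the cadherin of endothelial junctions, had 62.4, 61.5 and 61.5 FPKM. Both were within the top 1000 genes, at ranks 912 and 956, and *kdrl* was above *cdh5* in each sample. The small GTPase partner *rasip1* was at 59.2 ± 0.284 FPKM and the sphingosine phosphate receptor *s1pr1* at 50.1 ± 0.576 FPKM. The Tie receptors *tek* and *tie1* were at 32.9 ± 0.638 and 21.2 ± 0.306 FPKM, *pecam1* at 19.5 ± 0.224 FPKM, and the Vegf receptors *kdr* and *flt1* at 14.97 ± 0.696 and 12.02 ± 0.21 FPKM (SD, n = 3 each).

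Among the other transcription factors of the list, *hhex* was at 57.0, 47.7 and 53.4 FPKM and *etv2*, an early inducer of the endothelial and blood lineages, at 41.7, 41.8 and 41.8 FPKM. *erg* was lower, at 17.2, 16.0 and 17.5 FPKM. *sox7* had 15.3, 14.6 and 12.2 FPKM, and *sox17*, the other SoxF gene of the list, had 1.26, 1.19 and 1.19 FPKM. Lowest were *vwf*, the clotting glycoprotein of mature endothelium, at 0.61, 0.55 and 0.46 FPKM, and *plvapa* at 0.36, 0.08 and 0.53 FPKM. Along the list ordered by mean, 19 of 38 neighbouring pairs had overlapping ranges, so the order of those neighbours is not resolved by their ranges. The list summed to 1661, 1638 and 1637 FPKM, which was 0.313% ± 0.00280 of all FPKM (SD, n = 3).

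**Figure D2:**
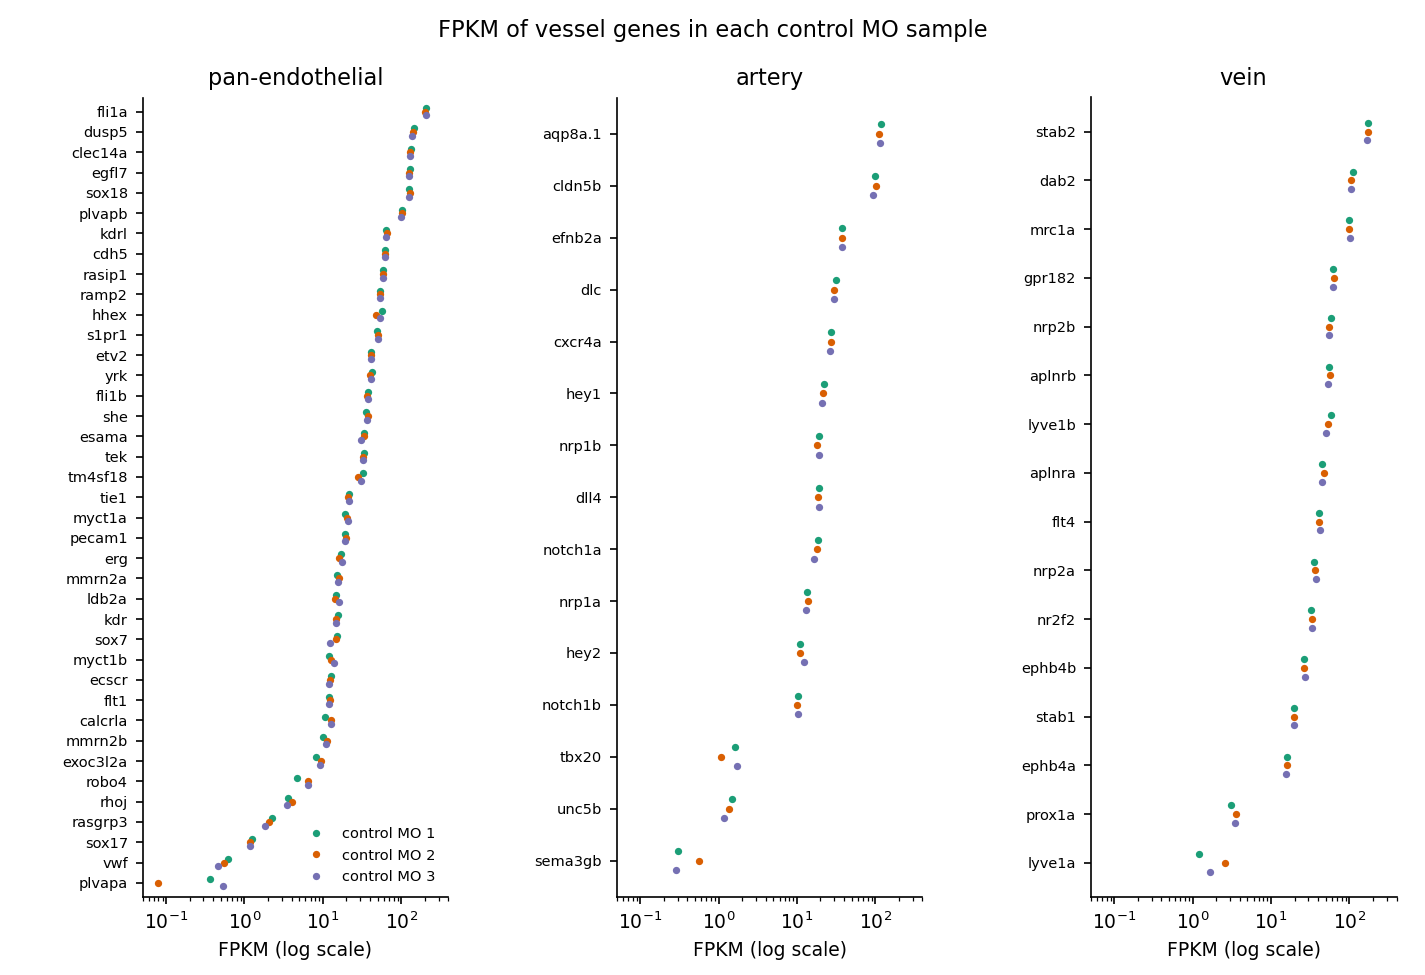
Each row is a gene of the pan-endothelial, artery or vein list and each point its FPKM (log scale) in 1 control MO sample, with sample 1 drawn above samples 2 and 3. The 3 points of a row lie close together down to about 5 FPKM and spread apart for *plvapa*, *tbx20*, *sema3gb* and *lyve1a*, and most vein genes lie to the right of most artery genes.

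Genes of veins were higher than genes of arteries. The 16 vein genes were all at 1 FPKM or more in every sample, with a median of 43.5 FPKM. Of 15 artery genes, 14 were, with a median of 18.9 FPKM. The ratio of the list medians, vein over artery, was 2.24, 2.43 and 2.31 in the 3 samples. The ratio describes these 2 lists and not numbers of cells.

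The scavenger and clearance receptors led the vein list. *stab2*, a receptor that takes up hyaluronan and other ligands, had 171.6, 171.0 and 168.8 FPKM, and its paralog *stab1* had 19.7 FPKM in each sample. The endocytic adaptor *dab2* was at 107 ± 2.8 FPKM, the mannose receptor *mrc1a* at 99.7 ± 1.71 FPKM and the G protein-coupled receptor *gpr182* at 62.7 ± 1.72 FPKM (SD, n = 3 each). *lyve1b*, a hyaluronan receptor of venous and lymphatic endothelium, had 58.6, 53.3 and 50.9 FPKM, with sample 1 the highest. The apelin receptors *aplnrb* and *aplnra* were at 55.3 ± 0.966 and 45.6 ± 1.51 FPKM. The Vegf receptor *flt4* was at 41.4 ± 0.63 FPKM, the venous nuclear receptor *nr2f2* at 32.9 ± 0.5 FPKM and the venous ephrin receptor *ephb4a* at 16.00 ± 0.366 FPKM (SD, n = 3 each). *prox1a*, a master factor of lymphatic fate, was near the low end at 3.13, 3.54 and 3.44 FPKM.

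The artery list opened with the water channel *aqp8a.1*, at 117.6, 111.7 and 113.8 FPKM, and the junction claudin *cldn5b*, at 100.2, 102.7 and 94.1 FPKM. Below these 2 came a gap. *efnb2a*, the arterial ephrin ligand, had 37.3, 37.6 and 37.2 FPKM, and the Notch ligand *dlc* was at 30.4 ± 0.903 FPKM. Other Notch pathway members were the target *hey1* at 22.1, 21.7 and 21.2 FPKM, the ligand *dll4* at 19.1, 18.7 and 18.9 FPKM, the receptors *notch1a* and *notch1b* at 17.6 ± 1.07 and 10.3 ± 0.244 FPKM, and *hey2* at 11.5 ± 0.848 FPKM (SD, n = 3 each). The chemokine receptor *cxcr4a* was at 27.1 ± 0.843 FPKM. *tbx20* and *unc5b* were under 2 FPKM and *sema3gb* was under 1 FPKM in every sample.

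Endocardium, the inner lining of the heart, had few genes at such levels. Of 11 genes on its list, 8 were at 1 FPKM or more, with a median of 3.89 FPKM. The flow-responsive factor *klf2a*, which other endothelium uses too, led at 58.2, 61.4 and 60.7 FPKM. *nfatc1*, which marks endocardium and valves, had 3.21, 2.42 and 3.03 FPKM, and *bmp10l* was listed at 0 in all 3 samples.

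Blood genes differed widely by lineage. Red cell genes were the highest. Besides globins, 30 of 33 erythroid genes were at 1 FPKM or more in every sample and 18 at 100 FPKM or more, with a median of 118 FPKM. The ratio of this median to that of the pan-endothelial list was 5.50, 5.74 and 5.39 in the 3 samples. The heme synthesis enzyme *urod* led, at 1004, 999 and 1000 FPKM. The red cell anion exchanger *slc4a1a* had 611.3, 616.1 and 603.2 FPKM, and *alas2*, the first enzyme of heme synthesis in red cells, had 511.8, 506.2 and 509.5 FPKM. The heme synthesis enzymes *cpox*, *hmbsb*, *hmbsa* and *alad* lay at means of 412.7, 299.0, 196.8 and 175.7 FPKM, and *fech*, which inserts the iron, at 64.5 FPKM. Among the regulators, *klf17* was at 269 ± 6.27 FPKM and *gata1a*, the master factor of red cells, at 125 ± 2.77 FPKM (SD, n = 3 each). The globins were nearly all embryonic, with 11 embryonic globin genes summing to 89108, 89637 and 89569 FPKM, and 5 adult globin entries to 11.02, 11.51 and 13.6 FPKM. The embryonic beta-type globins exceeded the alpha-type ones by a ratio of 1.08 ± 0.00503 (SD, n = 3). Near-identical globin copies can share reads, so the split among the *hbae1* and *hbbe1* genes is uncertain.

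Genes of early blood progenitors and hemogenic endothelium fell into a high and a low part. Of 21 such genes, 19 were at 1 FPKM or more in every sample and 10 at 10 FPKM or more, with a median of 5.92 FPKM. The high part held *tal1* at 116.3, 112.9 and 112.6 FPKM, *gfi1b* at 96.1, 92.3 and 95.8 FPKM and *lmo2* at 93.4, 90.4 and 90.3 FPKM, which act in red cell progenitors as well as in HSPCs. *myb*, needed for definitive blood, had 41.0, 38.6 and 39.4 FPKM, *gata2a* had 33.3, 31.9 and 33.4 FPKM and *mecom* had 24.7, 24.5 and 24.4 FPKM. In the low part, *runx1*, which is required for the endothelial to hematopoietic transition, had 5.51, 4.2 and 3.4 FPKM, at rank 8507. *gata2b*, which acts upstream of *runx1*, had 1.39, 2.3 and 2.08 FPKM. The highest and lowest samples of *runx1* and *gata2b* differed by 1.62 and 1.65 times. For *hoxb4a* they differed by 1.91 times, so these low genes are known less precisely. *itga2b*, the CD41 gene, and the thrombopoietin receptor *mpl* were under 1 FPKM in all 3 samples.

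Myeloid genes were uneven too. Of 24 neutrophil entries, 22 were at 1 FPKM or more, with a median of 4.48 FPKM, and 1 gene held much of their sum. *lyz*, a lysozyme of early myeloid cells, had 384.0, 381.1 and 392.1 FPKM, at rank 173 and above *fli1a* in each sample. *cebpb*, a factor also active outside the myeloid lineage, was at 128 ± 1.97 FPKM, and the granule genes *npsn* and *mpx* were at 47.8 ± 1.44 and 28.8 ± 0.751 FPKM (SD, n = 3 each). The ratio of *lyz* to *mpx* was 13.5, 12.8 and 13.9. The macrophage list had a lower median, 2.13 FPKM, with 18 of 28 genes at 1 FPKM or more. Its highest members, *lcp1* at 45.2, 43.6 and 44.0 FPKM, *arpc1b* at 39.04 ± 0.9 FPKM and *coro1a* at 32.1 ± 2.65 FPKM (SD, n = 3 each), are actin regulators found in other cells as well. *mfap4* was at 17.2 ± 1.13 FPKM, while *mpeg1.1*, the gene most used to mark zebrafish macrophages, had 2.44, 3 and 2.7 FPKM. The growth factor receptor *csf1ra* had 1.21, 1.59 and 1.5 FPKM, *marco* was at 0.140 FPKM in the mean, and the complement genes *c1qa* and *c1qc* were listed at 0 in all 3 samples.

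Thrombocyte genes were intermediate, with 8 of 11 at 1 FPKM or more and a median of 6.53 FPKM, led by *tubb1* at 78.9 ± 0.717 FPKM and *thbs1b* at 35.61, 36.41 and 38.04 FPKM. The glycoprotein gene *gp1bb* was next at 33.1 ± 0.99 FPKM, then came *nfe2*, which also stands in the erythroid list, at 21.7 ± 1.32 FPKM, and the glycoprotein gene *gp9* at 20.04 ± 1.38 FPKM (SD, n = 3 each). The 3 lowest members were under 1 FPKM in every sample, *itga2b* and *mpl* at means of 0.447 FPKM each and *itgb3a* at 0.287 FPKM. Just above them, *itgb3b* had 1.98, 1.51 and 1.82 FPKM and *f5* had 2.12, 2.31 and 2.47 FPKM. Lymphoid genes had the lowest list median, 0.005 FPKM. Of 14, only *tox* and *tcf7*, which other cells use, were at 1 FPKM or more, at means of 5.43 and 2.45 FPKM, and 7 were listed at 0 in all 3 samples, *lck*, *il7r* and *cd8a* among them.

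**Figure D3:**
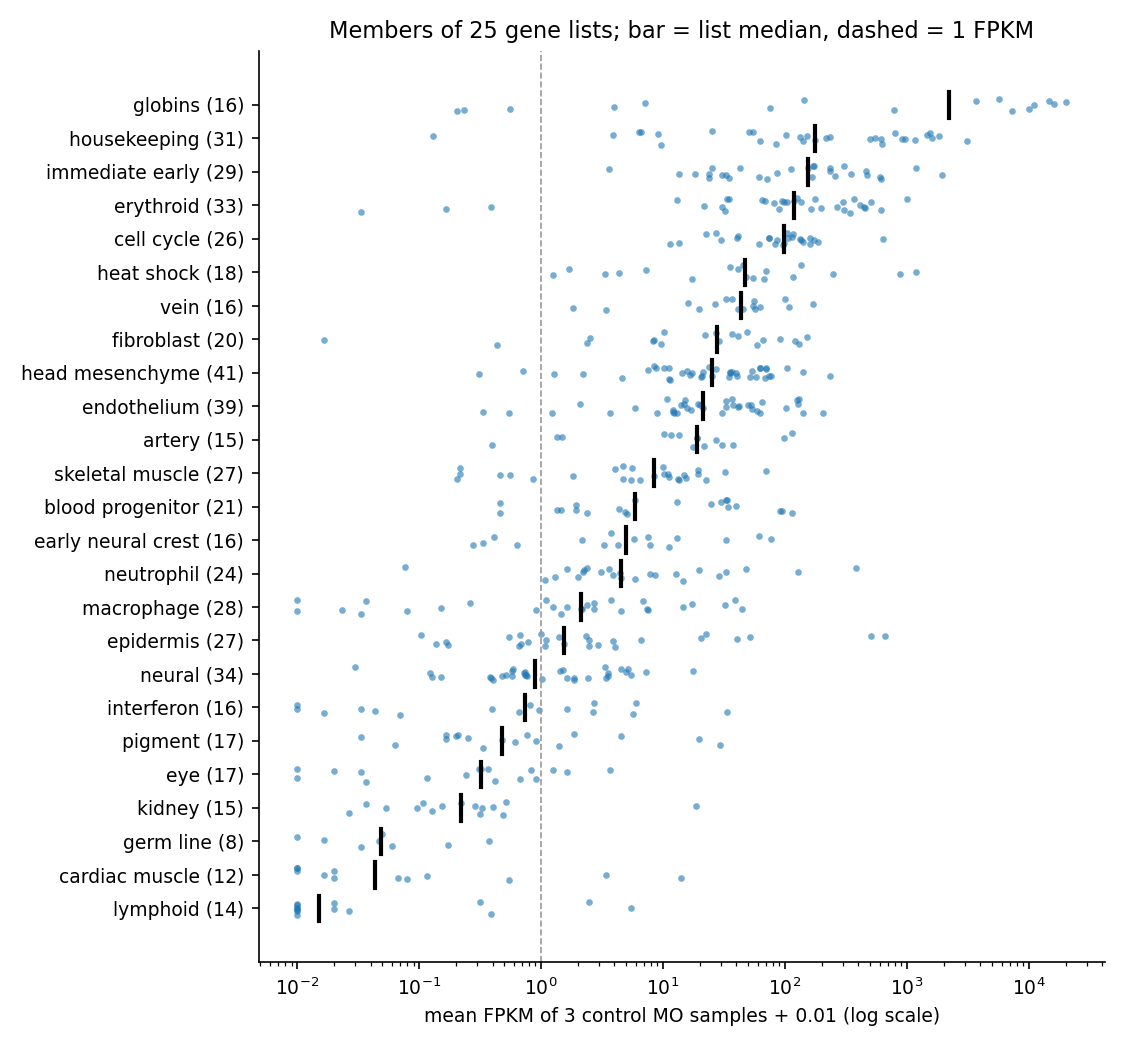
Each row is a gene list, with its number of entries in brackets, each point the mean FPKM of a member plus 0.01 on a log scale, and the black bar the list median. Globins stand apart at a median of 2216 FPKM, the vein, fibroblast, head mesenchyme, pan-endothelial and artery lists have medians between 18.9 and 43.5 FPKM, and the neural, interferon, pigment, eye, kidney, germ line, cardiac and lymphoid lists have medians under 1 FPKM.

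Head mesenchyme genes were about as high as those of the pan-endothelial list. The list held 41 genes used to mark the mesenchyme that cranial neural crest forms in the head and pharyngeal arches. Of these, 39 were at 1 FPKM or more in every sample and 31 at 10 FPKM or more, with a median of 24.99 FPKM. The list summed to 0.310% ± 0.00216 of all FPKM, close to the 0.313% of the pan-endothelial list (SD, n = 3). The artery and vein lists, at 0.0807% and 0.158%, are separate lists and not part of that 0.313%. The ratio of the sums, head mesenchyme over endothelium, was 0.985, 0.995 and 0.986. The ratio of the medians was 1.16, 1.23 and 1.16, so the mesenchyme list was the lower by its sum and the higher by its median. Members need not be restricted to this mesenchyme, and *dlx3b* also stands in the otic list. In which cells of the sort they were transcribed was not tested, so these ratios describe the lists and not numbers of cells.

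*twist1a*, a bHLH factor of ectomesenchyme, had 235.8, 231.8 and 232.4 FPKM, above *fli1a* in every sample, at a ratio of 1.14 ± 0.01 (SD, n = 3). The cartilage factor *sox9a* had 139.3, 139.0 and 141.2 FPKM. *dlx2a*, a homeobox gene of migrating and arch crest, had 105.2, 102.8 and 100.9 FPKM. The forkhead factors *foxc1a* and *foxc1b* were at 77.2 ± 0.0666 and 51.7 ± 1.83 FPKM, the Pdgf receptor *pdgfra* at 74.2 ± 0.841 FPKM and the endothelin receptor *ednrab* at 68.1 ± 1.67 FPKM (SD, n = 3 each). Genes that position cells along the arch were spread over a wide range. *dlx5a* and *dlx3b*, of the lower arch, were at 69.6 ± 5.24 and 62.2 ± 2.98 FPKM, and *grem2b* was at 57.5 ± 4.55 FPKM. *alx1*, of the frontonasal region, had 41.2, 33.7 and 36.0 FPKM, *barx1* had 24.7, 27.4 and 29.4 FPKM, and *hand2*, of the lowest part of the arch, had 22.2, 22.2 and 18.6 FPKM. The joint gene *nkx3.2* was at 1.26 ± 0.222 FPKM (SD, n = 3), and *dlx2b* and *tbx22* were under 1 FPKM in all 3 samples. None of the 39 members above 1 FPKM differed by over 1.5 times between samples. Among all 12748 genes at 1 FPKM or more, only 814 (6.39%) did, so the count cannot be read as a trait of this list. Along the list, 21 of 40 neighbouring pairs overlapped.

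Genes of earlier or non-ectomesenchymal crest were lower. Of 16 such genes, 12 were at 1 FPKM or more, with a median of 5.01 FPKM. *tfap2a*, at 75.6, 77.9 and 75.4 FPKM, and *ets1*, at 62.5, 61.5 and 58.6 FPKM, led it, and *ets1* is also an endothelial gene. *sox10*, which marks crest that forms pigment and glia, had 3.49, 3.11 and 3.15 FPKM, *crestin* had 5.65, 3.3 and 3.75 FPKM, and *foxd3*, a factor of premigratory crest, was under 1 FPKM in all 3 samples. Of 17 pigment genes 5 were at 1 FPKM or more, and their median was 0.470 FPKM. *mitfa*, the melanocyte master factor, was at 0.327 FPKM.

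Matrix genes of fibroblasts and connective tissue were high, with 18 of 20 at 1 FPKM or more and a median of 28.0 FPKM. *col1a1a*, a chain of type I collagen, had 151.1, 151.6 and 152.7 FPKM. The matrix genes *postnb* and *tgfbi* were at 130 ± 4.97 and 120 ± 1.87 FPKM, *col1a2* at 91.2 ± 2.16 FPKM and *sparc* at 69.6, 69.5 and 58.9 FPKM, with sample 3 below the other two. Mural cell genes were lower, at a median of 1.43 FPKM. *pdgfrb*, the receptor of pericytes, was at 4.97 ± 0.375 FPKM, and *notch3* at 15.2 ± 0.194 FPKM (SD, n = 3 each), while the smooth muscle actin *acta2* was listed at 0 in all 3 samples. Of 13 somite and sclerotome genes, 6 were at 1 FPKM or more and the median was 0.957 FPKM. Over all genes these values were 39.8% and 0.363 FPKM.

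Genes of tissues outside the reporter's known range had list medians below the 21.2 FPKM of the pan-endothelial list, although single genes stood above it. Skeletal muscle genes had a median of 8.49 FPKM, with 21 of 27 at 1 FPKM or more, led by *actc1b* at 69.9, 71.1 and 69.5 FPKM and the myosin light chain *mylpfa* at 33.0, 32.2 and 31.4 FPKM. The muscle transcription factors *myod1*, *myf5* and *myog* were at means of 0.853, 0.55 and 0.193 FPKM. Other sarcomere genes covered a wide range. *acta1b*, *myhz1.1*, *tnnc2* and *tpma* were at means of 15.3, 14.8, 13.5 and 13.2 FPKM. The lowest were *neb*, *ttn.1* and *ttn.2*, at means of 0.453, 0.207 and 0.207 FPKM. In epidermis, the simple keratins *krt8* and *krt18a.1* stood at 665 ± 4.90 and 512 ± 4.98 FPKM (SD, n = 3 each), while no other epidermal gene had a mean above the 51.6 FPKM of *krt4*. The basal keratin *krt5* had 3.46, 3.79 and 4.31 FPKM, *epcam* had 6.65, 6.84 and 6.35 FPKM and *cdh1* had 2.35, 2.09 and 2.49 FPKM, and the list median was 1.52 FPKM. *krt8* and *krt18a.1* are not restricted to epidermis, and in which cells of the sort they were transcribed was not tested. Neural genes had a median of 0.882 FPKM, against 0.363 FPKM over all genes. Of 34 entries, 14 were at 1 FPKM or more, near the 39.8% of all genes. Only *gbx2* was above 10 FPKM, at 17.5 ± 0.0643 FPKM (SD, n = 3).

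Several other tissues had list medians below the 0.363 FPKM of the median gene, while those of notochord and hatching gland were above it. The list median was 0.310 FPKM for eye, 0.347 FPKM for endoderm, 0.210 FPKM for kidney, 0.187 FPKM for ionocytes and 0.0383 FPKM for the germ line. The heart muscle genes *myl7*, *myh6* and *nppa* were listed at 0 in all 3 samples. The yolk syncytial list had a median of 0.0967 FPKM, although its members *apoeb* and *apoc1* were at 40.7 ± 2.72 and 19.7 ± 1.82 FPKM (SD, n = 3 each). The notochord list had a median of 1.11 FPKM, with *ccn2a* at 47.8 ± 1.44 FPKM and *tbxta*, the notochord factor, under 1 FPKM. All 10 hatching gland entries were at 1 FPKM or more, with a median of 8.15 FPKM. They were led by *klf17*, *xbp1* and *cd63*, which red cells or many cells also use, and the hatching enzyme genes *he1.1* and *he1.2* were at 20.4 ± 0.571 and 9.03 ± 1.34 FPKM (SD, n = 3 each). The 4 entries of *ctslb*, a cathepsin of this gland, had means between 3.64 and 7.26 FPKM. The otic list had 4 of 10 genes at 1 FPKM or more, near the 39.8% of all genes. They were led by *sparc* and *dlx3b*, which also stand in other lists. The other two were *oc90*, an otoconial matrix gene, at 8.43, 8.35 and 8.53 FPKM, and *stm*, needed for otolith growth, at 7.79, 7.6 and 7.43 FPKM.

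The sort was rich in transcripts of growth and division. All 26 cell cycle entries were at 10 FPKM or more in every sample, with a median of 97.6 FPKM. *pcna*, the sliding clamp of DNA replication, had 630.4, 638.2 and 631.3 FPKM, the replication helicase genes *mcm7* and *mcm4* were at 174 ± 1.51 and 159 ± 2.71 FPKM, and the mitotic genes *cdk1* and *plk1* at 135 ± 1.88 and 104 ± 2.99 FPKM (SD, n = 3 each). The 2 entries of *rrm2*, a subunit of ribonucleotide reductase, had sample 2 lowest in one and highest in the other, at 196.4, 163.6 and 201.9 FPKM for one and 117.5, 151.9 and 129.7 FPKM for the other, and reads may be split between them. Among 147 KEGG pathways of at least 10 genes, Ribosome had the highest median, 567 FPKM, followed by Proteasome at 66.8 FPKM, Oxidative phosphorylation at 49.9 FPKM, DNA replication at 42.8 FPKM and Spliceosome at 41.3 FPKM. The median over the 5750 genes with any KEGG assignment was 4.603 FPKM. Of signaling pathways, Hedgehog was at 10.1 FPKM, TGF-beta at 9.78 FPKM, Notch at 8.31 FPKM, Wnt at 6.64 FPKM and VEGF at 4.30 FPKM. Others lay between these, such as p53 signaling at 9.41 FPKM and mTOR at 6.40 FPKM. At 1 FPKM or more were 51 of 58 Notch pathway genes (87.9%), against 3880 of the 5750 genes with a KEGG assignment (67.5%). The shares were 82.1% for Hedgehog, 80.7% for TGF-beta, 75.1% for Wnt and 79.5% for VEGF. Neuroactive ligand-receptor interaction had the lowest median, 0.0333 FPKM.

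AP-1 genes had the most RNA among genes that the table annotates as transcription factors. The annotation is incomplete, and *twist1a* and the erythroid zinc finger genes *blf* and *znfl2a*, at means of 233.4, 454.4 and 440.9 FPKM, are not among them. Of 851 genes annotated as transcription factors, 508 (59.7%) were at 1 FPKM or more in every sample, against 39.8% of all genes. The highest of these was *fosab*, an AP-1 subunit, at 1943, 1937 and 1946 FPKM, which was 9.40, 9.62 and 9.47 times *fli1a*. Next were further AP-1 genes, *junbb* at 1182 ± 12.5 FPKM, *jun* at 618 ± 9.33 FPKM and *junba* at 606 ± 9.45 FPKM, and the stress factor *atf3* at 461 ± 3.61 FPKM (SD, n = 3 each). *id1*, *klf6a*, *atf4a*, *atf4b* and *jdp2b* followed at means of 397.2, 347.6, 347.3, 337.8 and 279.2 FPKM. Among the annotated genes *klf17* was 11th and *fli1a* 12th. All 29 immediate early genes, which cells switch on within minutes of a stimulus, were at 1 FPKM or more, and 16 were at 100 FPKM or more, with a median of 153 FPKM and a sum of 1.503% ± 0.00377 of all FPKM (SD, n = 3), above that of the pan-endothelial list. *egr1* had 171.0, 175.4 and 171.8 FPKM. The list was also drawn up to hold genes that respond to tissue dissociation. By the study's methods, embryos were dissociated with an enzyme and by pipetting before sorting. Whether this raised the genes of the list was not tested.

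Other stress lists had lower medians. Of 18 heat shock genes, all were at 1 FPKM or more, with a median of 46.7 FPKM, led by the constitutive chaperones *hsp90ab1* at 1177 ± 4.96 FPKM and *hspa8* at 878 ± 0.879 FPKM. The inducible *hsp70.3* and *hsp70.2* were at 134 ± 0.46 and 116 ± 1.4 FPKM (SD, n = 3 each), and these copies are near-identical and may share reads. p53 targets had a median of 6.46 FPKM. *ccng1* led them at 157.9, 155.5 and 156.6 FPKM, *cdkn1a* had 25.4, 24.4 and 24.2 FPKM and *mdm2* had 5.91, 6.45 and 5.47 FPKM. Interferon-stimulated genes had a median of 0.725 FPKM, with *isg20* at 33.4 ± 2.18 FPKM and *isg15* at 0.803 ± 0.15 FPKM (SD, n = 3 each). The 31 housekeeping genes had a median of 177 FPKM.

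Among surface receptors the endothelial and mesenchymal genes stood side by side. Of 70 genes annotated as receptor tyrosine kinases, *pdgfra* was the highest, then *kdrl* and *flt4*, then *epha2b* at 37.03 ± 1.3, *fgfr4* at 35.6 ± 0.787 and *tek* at 32.9 ± 0.638 FPKM (SD, n = 3 each). Of 907 genes annotated with G protein-coupled receptor activity, many of them sensory receptors, 81 (8.93%) were at 1 FPKM or more. The highest were *ednrab*, *gpr182*, *aplnrb* and *s1pr1*, followed by the thrombin receptor *f2r* at 51.2, 47.0 and 49.0 FPKM and *aplnra*. Of 129 genes annotated with growth factor activity, 44 (34.1%) were at 1 FPKM or more, against 39.8% of all genes. The heparin-binding factor *mdka* was the highest, at 82.7, 87.0 and 118.8 FPKM, with sample 3 above samples 1 and 2. *osgn1* was next at 42.7 ± 0.815 FPKM, then *bmp5* at 30.03 ± 0.455 FPKM and *igf2b* at 26.1 ± 0.489 FPKM. *bmp3* at 25.5 ± 2.87 FPKM and *hbegfa* at 25.1 ± 0.0351 FPKM followed (SD, n = 3 each).

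The related genes that were compared were seldom at 1 level. Zebrafish keep many duplicated genes, and 35 pairs of related genes of vessels, blood and mesenchyme could be compared. Some pairs are not such duplicates but members of 1 family, such as *tie1* with *tek*. In none of the 35 did the 3 values of 1 gene overlap with those of the other. This was not counted for pairs of unrelated genes, so it cannot be read as a trait of related genes. The higher gene exceeded the lower by over 2 times in 24 pairs and by over 10 times in 7. *fli1a* was 5.49 times *fli1b*, *kdrl* 4.29 times *kdr*, *klf2a* 6.69 times *klf2b* and *twist1a* 6.72 times *twist1b* by their means. *sox18* was 9.003 times *sox7*, and *stab2* 8.65 times *stab1*. *gata2a* was 17.1 times *gata2b*, *pdgfra* 14.9 times *pdgfrb*, *lyve1b* 29.9 times *lyve1a* and *fn1a* 12.2 times *fn1b*. *dlx2a*, *plvapb* and *slc4a1a* exceeded partners that were under 1 FPKM, whose ratios are therefore imprecise. The closest pairs were *actb2* with *actb1*, at 1.15 times, *aplnrb* with *aplnra*, at 1.21 times, and *nrp1b* with *nrp1a*, at 1.40 times. The SD of the log2 ratio between samples had a median of 0.09 over the pairs, and reads that fit both genes of a pair could shift any of these ratios.

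**Figure D4:**
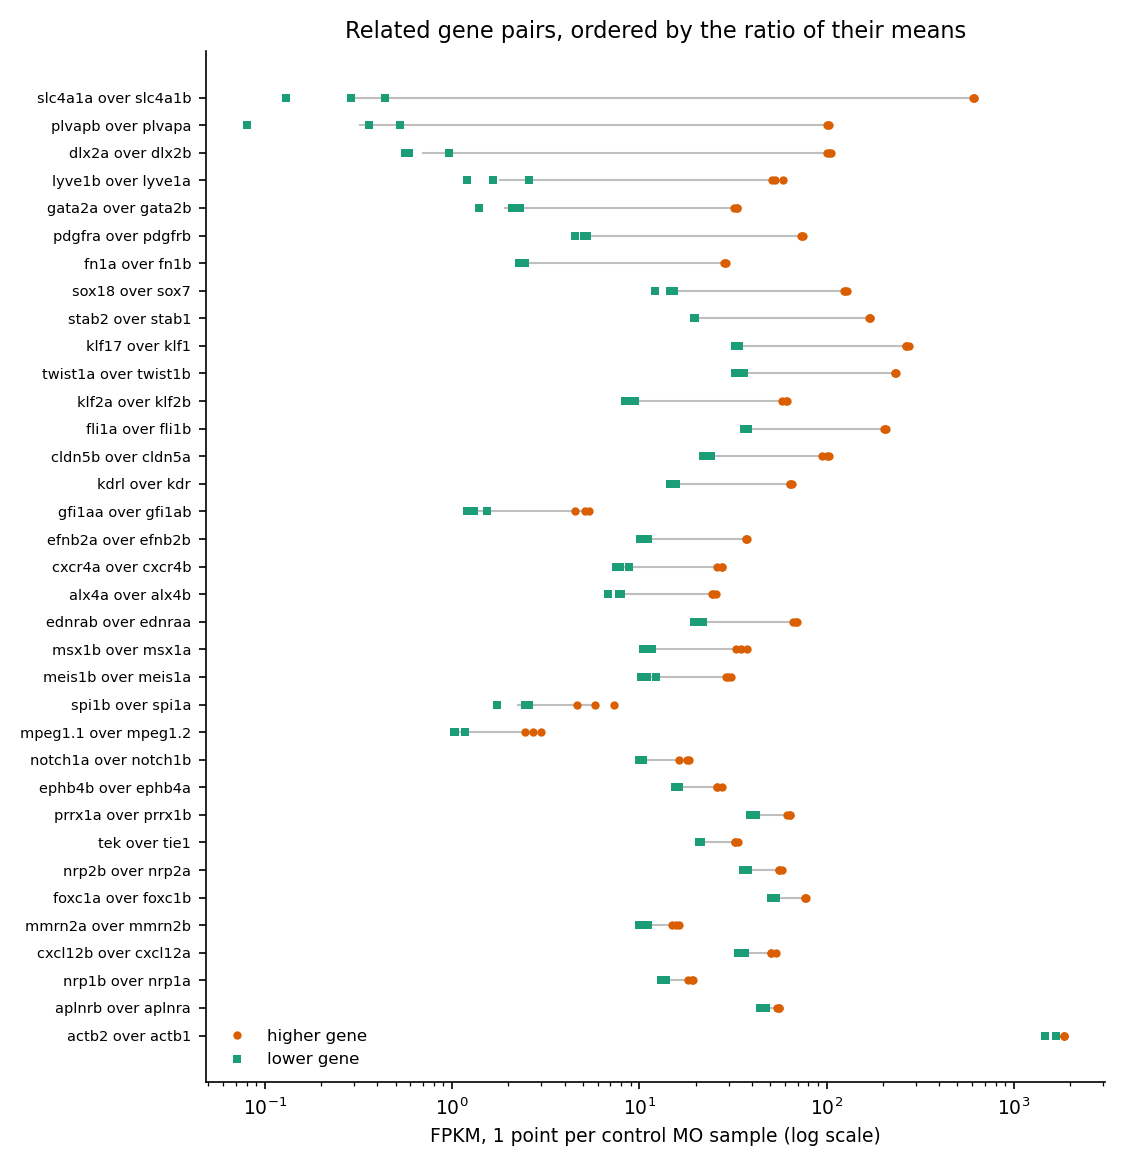
Each row is a pair of related genes, with the higher one (orange circles) and the lower one (green squares) each drawn as 1 point per control MO sample, on a log FPKM axis, and rows ordered by the ratio of the means. No pair overlaps, and the rows run from *slc4a1a* over *slc4a1b* at the top to *actb2* over *actb1* at the bottom.

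The 3 samples were close to each other. Over the 12748 genes at 1 FPKM or more in all 3, the SD of log2(FPKM + 0.1) had a median of 0.09, and Spearman's rho taken across genes, which do not vary independently, was 0.989, 0.990 and 0.989 for the 3 pairs of samples. The highest sample was over 2 times the lowest for 145 of these genes (1.14%) and over 1.5 times for 814 (6.39%). Among the 37 pan-endothelial members at 1 FPKM or more, none passed 1.5 times. In the vein list *lyve1a*, at 1.21, 2.57 and 1.66 FPKM, was the 1 gene that passed 2 times, and in the artery list *tbx20*, at 1.61, 1.09 and 1.73 FPKM, passed 1.5 times.

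The spread fell steadily with level. The median SD was 15.8% of the mean for genes at 1 to 2 FPKM, 4.57% at 10 to 20 FPKM, 1.85% at 100 to 200 FPKM and 0.858% at 1000 FPKM or more. On log scales the slope of this line was -0.49 over the 6 level classes under 100 FPKM and -0.41 over all 10 classes, where a spread that falls with the square root of the level would give -0.5. The median-of-ratios size factors of the FPKM were 1.004, 1.001 and 0.99995. FPKM are already set relative to each sample's mapped fragments, so factors near 1 do not show that the samples were alike in depth. Read depth is not known from FPKM, so the share of the spread due to counting alone was not computed.

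**Figure D5:**
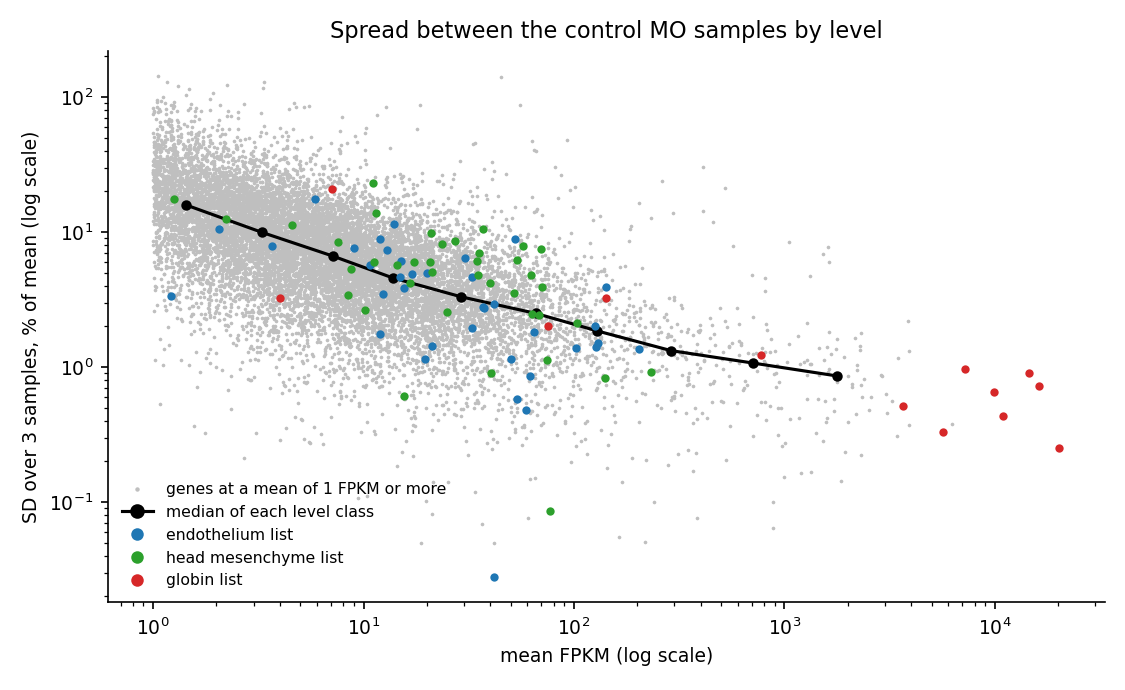
Each grey point is a gene, with its mean FPKM on the x axis and the SD over the 3 samples as a percent of the mean on the y axis, both log scales, and the black line joins the medians of 10 level classes. The line falls from 15.8% in the lowest class to 0.858% in the highest, and members of the pan-endothelial (blue), head mesenchyme (green) and globin (red) lists lie on both sides of it.

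A few genes went against this order. Among the 7970 genes with a mean of 5 FPKM or more, 149 had an SD of log2(FPKM + 0.1) over 0.3, and the sample farthest from the middle one was sample 1 for 45, sample 2 for 58 and sample 3 for 46, so no single sample held them. The largest spread was that of an entry with no gene symbol, ENSDARG00000082753, at 82.1, 0 and 84.3 FPKM, and of ENSDARG00000109392, annotated to the assembly of respiratory complex I, at 27.6, 0 and 27.8 FPKM. *egln1b*, an oxygen-sensing prolyl hydroxylase, had 18.2, 0.27 and 19.9 FPKM, and *dctpp1*, a nucleotide pyrophosphatase, had 16.8, 1.73 and 16.2 FPKM. ENSDARG00000099249 had 7.63, 7.92 and 0.15 FPKM, ENSDARG00000096403 had 2.81, 14.2 and 117.3 FPKM and ENSDARG00000092172 had 11.8, 10.5 and 1.42 FPKM. The small nucleolar RNA entry ENSDARG00000083424 had 2.52, 10.9 and 3.06 FPKM, *zgc:100918* had 12.5, 11.2 and 4.36 FPKM, and the nucleoside transporter *slc29a1a* had 42.7, 16.2 and 43.1 FPKM. In 8 of these 10, 2 samples lay within 1.2 times of each other and the other one was over 2 times off. The 10 were picked for their large spread and this was not counted for other genes, so it describes these 10 alone. *cpn1*, a carboxypeptidase gene, was at 0, 1.78 and 8.36 FPKM. A value of 0 in such a table can be a failed estimate, so these entries are listed at 0 and not called absent. None of these genes belongs to a list described above.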

How the data were processed

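EGFP+ cells of Tg (*fli1a*:EGFP) embryos at 28 hpf were sequenced in 3 control MO samples. Each has a column of its own, headed by S and a number, and none was pooled. The S was read as the study's Standard (control) morpholino and the number as the replicate of the label, which is an inference. According to the study's methods, HISAT2 placed trimmed single-end reads on the zebrafish genome of Ensembl, StringTie built the transcripts, and StringTie with ballgown gave the FPKM. The submitters' processing notes name CASAVA 1.8, Bowtie 0.12.2 and the mouse build mm8 instead, and this was not settled here. The authors deposited FPKM rounded to 2 decimals, which are relative to gene length and to the mapped fragments of each sample. The table also holds the authors' own fold change as a ratio and on the log2 scale, with p-values and q-values, all of the comparison with the other group. These columns were not used.

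No further scaling was applied. SDs printed after ± and SDs in percent of the mean were computed on the values as given, in FPKM, percent or as ratios. SDs of log2 values, and the median SDs of the closing section, used log2(FPKM + 0.1). A gene counted as measured at 1 FPKM or more in all 3 samples. Read depth is unknown, since FPKM keep no totals and the most common ratio between low values of 2 samples covered only 1.57%, 1.46% and 1.60% of genes, so precision is that of 3 samples. The deposited symbols end at the point, and 3355 full symbols were restored from descriptions, a list of gene names (28987 identifiers found) and, for 11, by hand. Of 723 list symbols, 694 were found. Of each list the 5 highest members, and any member of the vessel, progenitor, macrophage and head mesenchyme lists, could be named, with the top 25 genes, the 10 most variable genes at a mean of 5 FPKM or more, and genes listed at 0. Members, lists and gene pairs were chosen with earlier results of these data known, and the Gene Ontology and KEGG groups after their values were seen. Other names, such as *fech*, *egr1* and *sox10*, were also chosen after their values were seen. No sequence or position was read. The computation of the spread statistics was tested on simulated data. These had the same spread at every level, unlike the data, so they do not bear on the fall of the spread with level. Python 3.11.15, pandas 2.3.3, numpy 2.4.6, scipy 1.17.1 and matplotlib 3.10.9 were used.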

Additional observations from a re-analysis of the deposited data

How the results depend on the processing

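No paired analysis was possible because the 3 control MO samples form 1 group and were set against no other group. Leaving out each sample in turn gave 12927 to 12959 genes at 1 FPKM or more, 120 to 121 genes in 50% of the sum, a median SD of 0.07 (0.0651 to 0.0685) and 69 to 84 genes over 2 times, where a range over 2 samples is smaller by construction. The shares became 0.312% to 0.314% for the pan-endothelial, 0.309% to 0.311% for the head mesenchyme, 17.0% to 17.1% for the globin and 0.138% for the neutrophil list. A minimum of 5 FPKM left 7618 genes, 13 genes over 2 times and a median SD of 0.0598, and the limit of 1.5 times gave 814 genes. The median SD was 0.0745 with a pseudocount of 1 and 0.175 with no minimum. Without globins 222 genes made up 50% of the sum, and the shares were 0.378% (pan-endothelial), 0.373% (head mesenchyme) and 0.166% (neutrophil). Without its most abundant member the pan-endothelial share was 0.274%, the head mesenchyme share 0.265%, the globin share 13.2% and the neutrophil share 0.0645%. With members of no other list alone, the head mesenchyme share was 0.298% and the neutrophil share 0.137%. Of all 47 alternatives, 25 left the value within a set limit, median-of-ratios scaling among them. The limit was 1.5 times for counts and the SD over the 3 samples for shares. For the median SD it was the SD of the values with 1 sample left out. A share with 1 sample left out cannot pass its limit by construction, so this tally does not measure how robust the values are. Read depth is unknown, so the precision of low genes such as *runx1* is known only from the spread between samples.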
